A study of Homo sapiens with 2 samples.

Results

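The SLC25 carrier genes examined here are SLC25A1, SLC25A3, SLC25A5, SLC25A6, SLC25A11 and SLC25A39, 6 of the 10162 protein-coding genes with a usable cytosine in either library. They were measured by RNA bisulfite sequencing (RNA BS-Seq), in which bisulfite converts unmethylated cytosines so that they are read as T, while 5-methylcytosine (m5C) is read as C. The study compared 1 library of MCF10A, a non-tumorigenic mammary epithelial line, with 1 library of MDA-MB-468, a breast cancer line, to locate m5C on mRNA. Neither line was treated or genetically altered by the study. The labels give DMEM as the medium of both lines, while the study's methods give a DMEM-based medium with horse serum, EGF, hydrocortisone and insulin for MCF10A and RPMI with FBS for MDA-MB-468, so line and medium cannot be told apart. Poly(A)+ RNA of each was selected and held in sodium bisulfite at 60 degrees for 8 hours. Each line is an established cell line measured in 1 library with no replicate, so every comparison below is between 2 libraries and not between the cell lines.

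A site is a cytosine, and its coverage is the sum of its unconverted and converted counts. Sites were kept where the coverage was at least 10 and the position lay on a same-strand exon of a GENCODE basic transcript or on the mitochondrial chromosome. Backgrounds and shares over all kept or shared sites therefore include mitochondrial sites. The genes gave 1396 of 1584002 kept sites in MCF10A against 1194 of 1271253 in MDA-MB-468. All of these sites came from 5 of the 6 genes. The methylation ratio is the share of unconverted counts at 1 site, and nonconversion is the same share pooled over sites. A site was called m5C when its unconverted share exceeded the library background by a one-sided Fisher's exact test after Benjamini-Hochberg adjustment over all kept sites at 0.05. The genes were chosen by name with their called sites and methylation ratios in these libraries known, so calls, ratios and differences are given here as descriptions. Unconverted counts can come from m5C or from cytosines that bisulfite failed to convert, which this assay cannot tell apart at a single site.

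SLC25 proteins are carriers of the mitochondrial inner membrane that move metabolites, nucleotides and ions between the cytosol and the matrix. They are encoded in the nucleus, translated in the cytosol and inserted through the TIM22 import machinery after crossing the outer membrane. SLC25A3 carries phosphate for ATP synthesis, SLC25A5 and SLC25A6 exchange ADP for ATP, SLC25A1 exports citrate, SLC25A11 exchanges oxoglutarate for malate, and SLC25A39 has been linked to glutathione import into mitochondria.

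Most called cytosines of these genes lay in SLC25A3, and the following windows show the parts on which the comparison turned. Sequences are from GRCh37, written 5′ to 3′ along the RNA strand with T for U, and capitals mark the cytosines called m5C in the named library. The window chr12:98987860-98987888 on the plus strand is centred on the largest difference between libraries among the SLC25A3 sites that passed the adjusted test of single sites given further on. The window chr12:98987826-98987854 upstream of it holds the largest such difference outside the former. Every cytosine in both windows was called in MDA-MB-468, 17 in one and 10 in the other, and none was called in MCF10A. The window chr17:42397240-42397268 on the minus strand holds a shorter run in the 3′UTR of SLC25A39, where 6 of 13 cytosines were called in MDA-MB-468.
SLC25A3 exon 2, MDA-MB-468: ggCCCaCgggCCagCCCCgCCgCCCtCgC
SLC25A3 exon 2 upstream, MDA-MB-468: gatggtCtCggggaCCtCCgCagCagCtC
SLC25A39 3′UTR, MDA-MB-468: tgtttcccttCCCtCCCggcgacaagctc

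The libraries held 76098976 counts in MCF10A against 90960018 in MDA-MB-468, and kept sites had a median of 18 counts in each. Background nonconversion was 1.99% and 1.81%. At a coverage of 20 a call needed at least 5 unconverted counts in MCF10A against 4 in MDA-MB-468, so ratios below 25% and 20% could not be called there. RB1 and SMAD4, known to be lost in MDA-MB-468, had no kept site in that library, against 11 and 157 in MCF10A, while EGFR, which is amplified in that line, had 151119 counts against 13249. CDKN2A, deleted in MCF10A, had 0 sites there and 194 in MDA-MB-468. The epithelial markers CDH1 and EPCAM had 0 kept sites in MCF10A, although KRT8, KRT18, KRT5 and KRT17 were measured in both, and the blood markers PTPRC and HBB had 0 in both.

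Across the genes together, 3 of 1396 sites were called m5C in MCF10A against 61 of 1194 in MDA-MB-468. Over all kept sites the called share was 0.96% in MCF10A against 0.84% in MDA-MB-468. The SLC25 share was 0.215% in MCF10A against 5.11% in MDA-MB-468, below the former background and above the latter. SLC25A3 made this difference. Without it, 2 of 1111 sites were called in MCF10A against 7 of 1079 in MDA-MB-468, or 0.180% and 0.649%. Pooled nonconversion of the genes was 2.20% in MCF10A against 2.41% in MDA-MB-468. Without SLC25A3 the order turned, with 1.95% in MCF10A (95% Wilson interval 1.83% to 2.09%) against 1.50% in MDA-MB-468 (1.39% to 1.61%). Wilson intervals here and below cover counting error only, and are too narrow where neighbouring cytosines were counted on the same reads.

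**Figure D1:**
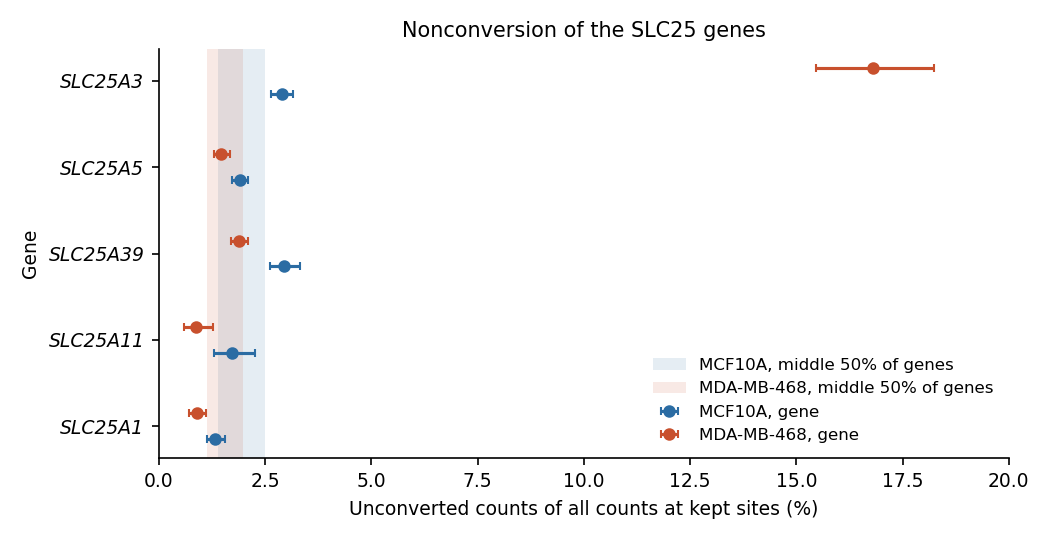
Nonconversion of each SLC25 gene (x axis, percent of counts at kept sites) in MCF10A (blue) and MDA-MB-468 (red), with 95% Wilson intervals as bars and the middle 50% of all protein-coding genes with at least 50 kept sites as bands. SLC25A3 in MDA-MB-468 lies at 16.8%, far outside the band, while the other 4 genes lie between 0.865% and 2.95%.

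SLC25A3, the phosphate carrier, lies at chr12:98987369-99000157 on the plus strand and has 8 exons in its canonical transcript. MCF10A covered 285 of its cytosines, with a median of 39 counts each, and MDA-MB-468 covered 115, with a median of 24. Its nonconversion was 2.89% in MCF10A (466 of 16114 counts, interval 2.64% to 3.16%) against 16.8% in MDA-MB-468 (470 of 2795 counts, interval 15.5% to 18.2%). Among protein-coding genes with at least 50 kept sites, whose median was 1.82% in MCF10A against 1.48% in MDA-MB-468, SLC25A3 ranked 1050 of 5928 and 4 of 5006 from the top. The difference of 13.9 percentage points was the 2nd largest in the direction of MDA-MB-468 among 3934 genes with at least 50 kept sites in each library, for which the median difference was -0.417 points. SLC25A3 gave 16891 deposited counts in MCF10A and 3653 from the larger MDA-MB-468 library. These counts come only from sites deposited at a coverage of at least 5, 394 in MCF10A and 243 in MDA-MB-468. They are not a direct measure of transcript amount, and whether that amount differed was not tested. In these bulk libraries, fewer cells holding the transcript and less of it per cell could not be told apart either.

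The called sites of SLC25A3 lay at the start of its coding sequence in MDA-MB-468. Of its 54 m5C calls there, 49 lay in exon 2 (chr12:98987753-98987913) and 5 in exon 3, all of them in the coding sequence. The 49 calls formed a single run of 109 nt from 98987795 to 98987903, in which no kept cytosine was left uncalled. It was the 2nd longest nuclear run in that library, in which the longest had 64 sites and the median run 2. Within the run 375 of 1269 counts were unconverted in MDA-MB-468, or 29.6% (interval 27.1% to 32.1%), and single ratios went from 20% to 45.5%. The same 49 sites gave 144 of 5520 counts in MCF10A, or 2.61% (2.22% to 3.06%), with ratios from 0% to 5.56%. The ratios of the libraries did not overlap within the run. The run was delimited by calls in MDA-MB-468, so high ratios in that library were fixed by this choice. At a coverage of 10, 20 and 30 a call there needed a ratio of at least 40%, 20% and 16.7%.

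**Figure D2:**
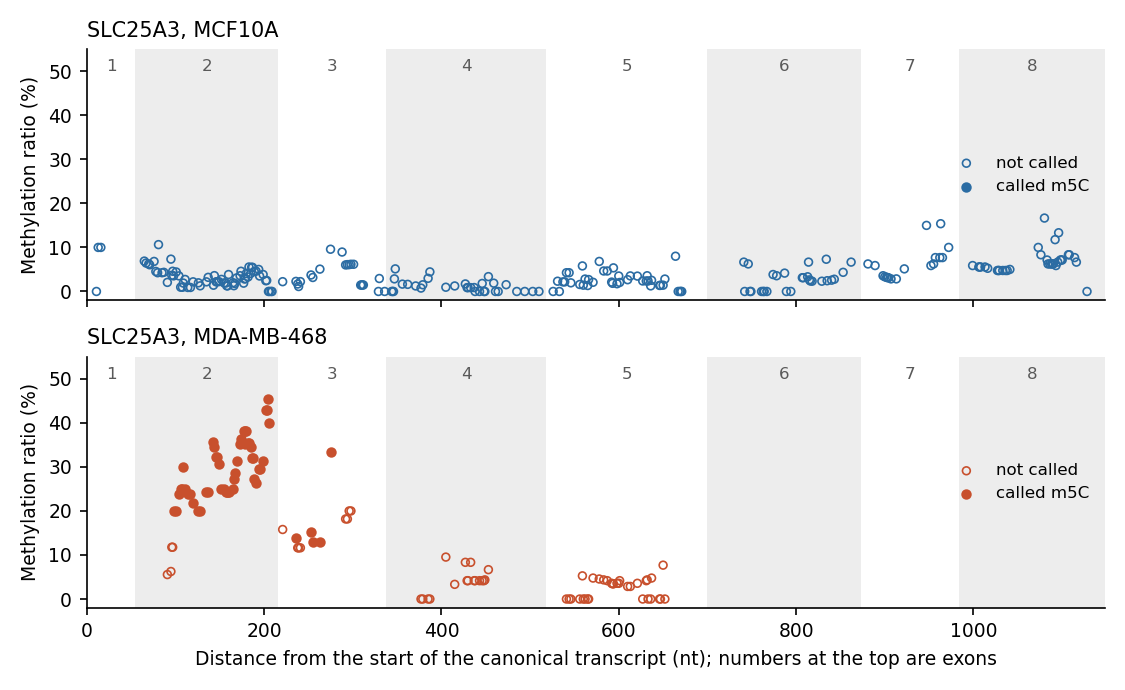
Methylation ratio (percent) of each kept SLC25A3 site along the canonical transcript (nt), MCF10A above and MDA-MB-468 below, with exons as numbered bands and called sites filled. Called sites fill exon 2 and part of exon 3 in MDA-MB-468 at 13.0% to 45.5%, and the 1 MCF10A call lies outside the exons of this transcript and is not drawn.

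The unconverted counts changed gradually along exon 2 in MDA-MB-468. They were 4 at the start of the run, at nt 43 of the exon, and reached 13 at nt 122, 123 and 125 before they fell to 4 at nt 151. Adjacent cytosines often had the same count, such as 8 unconverted of 33 at each of the 4 cytosines from nt 102 to nt 105. In MCF10A, by contrast, unconverted counts stayed between 0 and 6 across the run while coverage ran from 30 to 187. Coverage in MDA-MB-468 ran from 10 to 35. Neighbouring sites are therefore not separate observations, since the same reads can span several of them.

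**Figure D3:**
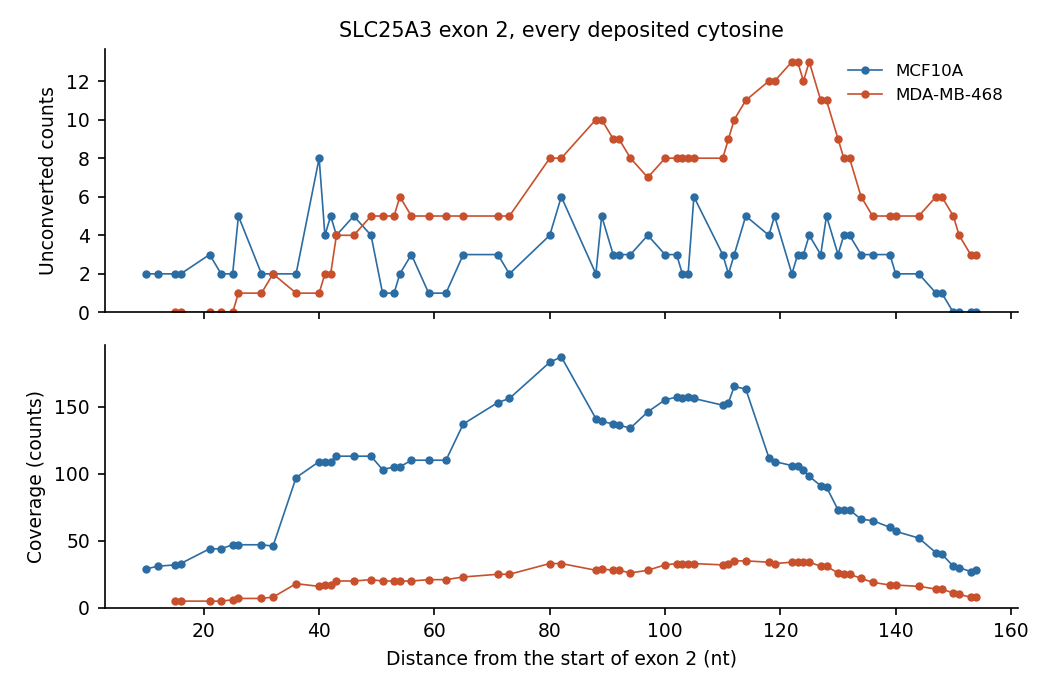
Unconverted counts (upper panel) and coverage (lower panel) of every deposited SLC25A3 exon 2 cytosine by distance from the exon start (nt), in MCF10A (blue) and MDA-MB-468 (red). Unconverted counts in MDA-MB-468 reach 13 although its coverage stays at or below 35, and those in MCF10A stay at or below 8 at a coverage of up to 187.

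Nonconversion of SLC25A3 in MDA-MB-468 was lower from exon 2 towards the 3′ end. Over the 53 exon 2 sites kept in both libraries, nonconversion was 28.5% in MDA-MB-468 and 2.74% in MCF10A, and 52 sites had the higher ratio in MDA-MB-468. Of these, 51 lay above 7.34%, the highest exon 2 ratio of MCF10A among shared sites. Exon 2 was singled out by its calls in MDA-MB-468 and its neighbouring sites can share reads, so these counts are not separate observations. Matching shares over all genes were not determined. Over 13 shared exon 3 sites it was 14.4% (11.2% to 18.2%) in MDA-MB-468 and 3.67% (2.89% to 4.65%) in MCF10A, and all 13 had the higher ratio in MDA-MB-468. Exon 3 held 1 called run, of 3 sites over 11 nt from 98989541 to 98989551, in which 19 of 138 counts were unconverted in MDA-MB-468 and 23 of 573 in MCF10A. Over the 49 shared sites of later exons it was 3.16% (2.27% to 4.39%) and 2.07% (1.68% to 2.56%), with 25 sites higher in MDA-MB-468 and no call. These pooled intervals overlapped, but exons 4 and 5 differed when all kept sites of each library were taken. Exon 4 gave 4.28% (2.65% to 6.84%) in MDA-MB-468 and 1.28% (0.925% to 1.78%) in MCF10A, whose intervals did not overlap. Exon 5 gave 2.57% (1.63% to 4.02%) and 2.60% (2.04% to 3.31%). Exons 6, 7 and 8 had no kept site in MDA-MB-468, so the comparison ended at exon 5.

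Cytosines predicted to pair are harder for bisulfite to reach, and the member transcripts were therefore folded. In exon 2 of SLC25A3, 7 shared sites fell in predicted pairs and gave 34.3% in MDA-MB-468 (28.3% to 40.8%) and 3.18% in MCF10A (2.11% to 4.77%). The 46 sites outside predicted pairs gave 27.4% (24.9% to 30.1%) and 2.68% (2.28% to 3.16%). Of the 49 called sites 43 lay outside predicted pairs, near the share among all shared sites of the exon, 46 of 53. The fold was made at 70 degrees and the reaction at 60 degrees. Whether structure contributed to the unconverted counts was not tested.

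At single sites, 1085 cytosines of the genes were kept in both libraries, and 21 differed by a two-sided Fisher's exact test adjusted over all 812729 shared sites. Over all shared sites 0.0893% differed, 0.0202% being higher and 0.0691% lower in MDA-MB-468. All 21 SLC25 sites were higher in MDA-MB-468, all lay in SLC25A3 exon 2 within 48 nt, and 5 lay in predicted pairs. Their differences went from 22.1 to 36.3 percentage points with a median of 29.9. At an unadjusted threshold of 0.05, 60 SLC25 sites differed, of which 57 in SLC25A3 were higher and 3 in SLC25A39 were lower in MDA-MB-468. The share of all shared sites passing this unadjusted threshold was not determined, so these counts have no background to be set against.

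Among these 21 sites, the 5 with the largest differences fell in the printed windows, 4 of them side by side. Larger differences that did not pass the adjusted test, of up to 45.5 points, stood at 98987899, 98987900, 98987902 and 98987903, outside both windows, at a coverage of 10 to 14 in MDA-MB-468. At 98987874, 2 of 106 counts were unconverted in MCF10A against 13 of 34 in MDA-MB-468, or 1.89% and 38.2%. Site 98987875 had 3 of 106 and 13 of 34. These cytosines belong to a CCCC stretch, whose last base at 98987877 had 4 of 98 in MCF10A against 13 of 34 in MDA-MB-468, while 98987876 had 3 of 103 and 12 of 34. The remaining site, 98987840, stood apart from them and had 2 of 141 in MCF10A against 10 of 28 in MDA-MB-468. Each of the 5 had 10 to 13 unconverted counts in MDA-MB-468 and 2 to 4 in MCF10A.

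The MCF10A call of SLC25A3 lay elsewhere. Position 98987693, in the 5′UTR of an alternative transcript, had 4 unconverted of 10 counts, or 40% (16.8% to 68.7%), and was in a predicted pair. It had no kept site in MDA-MB-468. The 15 kept 5′UTR sites of SLC25A3 in MCF10A gave 18 of 169 counts unconverted, or 10.7%. MDA-MB-468 had no kept 5′UTR site of this gene. SLC25A3 also has an alternative exon at chr12:98989211-98989335, which is used in place of exon 3 in another isoform, and its 22 cytosines had no deposited site in either library. Exon 3 had 22 kept sites in MCF10A against 13 in MDA-MB-468, so of these alternative exons only exon 3 was measured.

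SLC25A39, at chr17:42396993-42402238 on the minus strand, was the only other member with several calls. Its nonconversion was 2.95% in MCF10A (272 of 9215 counts, interval 2.63% to 3.32%) against 1.90% in MDA-MB-468 (346 of 18252 counts, interval 1.71% to 2.10%). It thus went the other way from SLC25A3, and its difference of -1.06 points ranked 3065 of 3934. In MDA-MB-468 6 of its 7 calls formed the 3′UTR run printed above, from 42397252 to 42397258, with 47 of 108 counts unconverted, or 43.5% (34.6% to 52.9%). Its highest called ratio at a coverage of at least 20 was 9 of 20 counts, or 45%, at 42397256 and 42397257, both in predicted pairs.

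MCF10A had no kept site in that SLC25A39 run, but its sites there had been deposited at a coverage of 8. These 6 cytosines gave 12 of 48 counts unconverted, or 25% (14.9% to 38.8%). The interval overlapped that of MDA-MB-468, and both lay above the backgrounds. The run could be called in MDA-MB-468 alone, since the coverage minimum left it out in MCF10A. The 7th call, at 42397319, had 8 of 83 counts unconverted in MDA-MB-468 and 0 of 18 in MCF10A, where the interval of the latter reached 17.6%. The MCF10A call of SLC25A39, at 42397362 in the 3′UTR, had 5 of 23 counts unconverted, or 21.7% (9.66% to 41.9%), against 3 of 76 in MDA-MB-468, or 3.95% (1.35% to 11.0%). Its window, chr17:42397348-42397376 on the minus strand, is shown because it holds the highest called ratio of the gene in that library.
SLC25A39 3′UTR, MCF10A: gcggctgaaaggggCaaggaggcaaggac

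**Figure D4:**
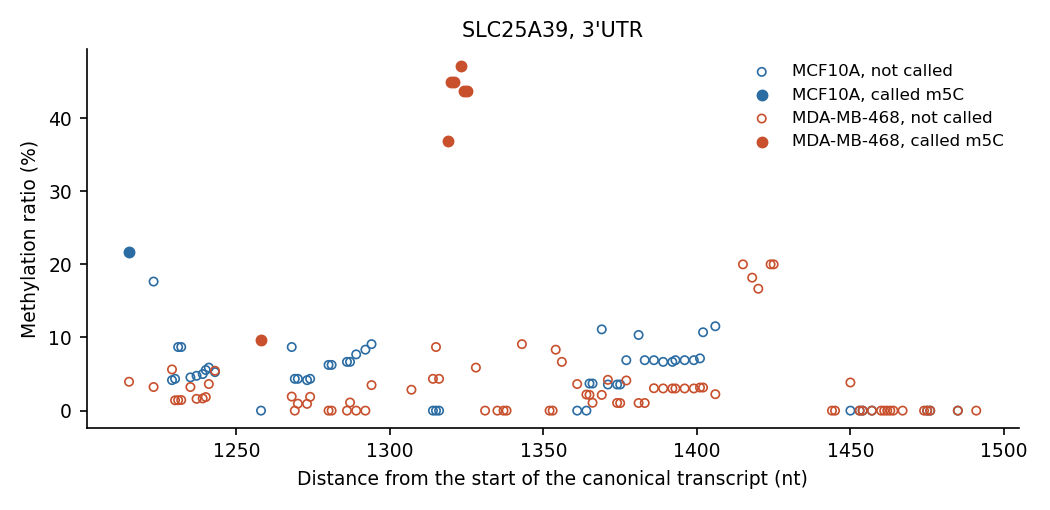
Methylation ratio (percent) of each kept site in the 3′UTR of SLC25A39 by distance along the canonical transcript (nt), in MCF10A (blue) and MDA-MB-468 (red), with called sites filled. The run of 6 called sites in MDA-MB-468 lies between 36.8% and 47.1%, and MCF10A has no kept site at those positions.

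By mRNA region, nonconversion of SLC25A39 was lowest in the 5′UTR and highest in the 3′UTR in both libraries. It did not rise steadily along the exons. Exons 5, 10 and 12 gave 6.81%, 0.804% and 5.00% in MCF10A, and 4.11%, 0.964% and 2.77% in MDA-MB-468. Its 5′UTR gave 1.13% (0.697% to 1.83%) in MCF10A and 0.911% (0.480% to 1.72%) in MDA-MB-468. Its coding sequence gave 2.82% (2.45% to 3.25%) and 1.45% (1.26% to 1.68%), and its 3′UTR gave 5.99% (4.75% to 7.53%) and 3.29% (2.82% to 3.84%). The intervals of the libraries overlapped in the 5′UTR alone. SLC25A39 also had 271 intronic sites deposited in MDA-MB-468, 110 of them at a coverage of at least 10, against 22 and 0 in MCF10A. Intronic nonconversion was 2.07% (1.59% to 2.71%) in MDA-MB-468, close to the background of that library.

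SLC25A5, an ADP/ATP exchanger at chrX:118602407-118605359 on the plus strand, was the most deeply covered member, with a median coverage of 95 over 203 sites in MCF10A and 62 over 189 in MDA-MB-468. Its nonconversion was 1.91% (1.73% to 2.10%) in MCF10A and 1.47% (1.29% to 1.68%) in MDA-MB-468, near the median of all genes in each. Its 1 call, at 118602424 in the 5′UTR, was made in MCF10A with 9 of 85 counts unconverted, or 10.6% (5.67% to 18.9%). MDA-MB-468 had 2 of 38 there, or 5.26% (1.46% to 17.3%), and the intervals overlapped. The site lies 18 nt from the start of the transcript, in the window chrX:118602410-118602438 on the plus strand.
SLC25A5 5′UTR, MCF10A: cgcagcgccggagtCaaagccggttcccg

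In MDA-MB-468, the highest SLC25A5 ratio at a coverage of at least 20 was 3 of 33 counts, at 118603660 in exon 2, and was not called. At a coverage of 100 a call needed 9 unconverted counts in MCF10A against 10 in MDA-MB-468, and single sites of this gene reached a coverage of 320 and 206.

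SLC25A6, the paralog of SLC25A5 with the same exchange activity, could not be measured. It lies in the pseudoautosomal region at chrX:1505045-1511006 on the minus strand, and a copy of it is annotated on the Y chromosome. Neither library had a deposited site on its 448 exonic cytosines. The first position of either library on chromosome X was 2748113, beyond the gene, so the lack of sites concerns the whole stretch and gives no level for SLC25A6. A comparison of aligned cytosines between SLC25A5 and SLC25A6 could not be made.

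The citrate carrier SLC25A1 and the oxoglutarate carrier SLC25A11 had no call in either library. SLC25A1, at chr22:19163094-19166249 on the minus strand, gave 1.33% (1.14% to 1.55%) over 438 sites in MCF10A and 0.888% (0.707% to 1.11%) over 383 sites in MDA-MB-468. In MDA-MB-468 317 of its sites, or 82.8%, had no unconverted count. Its highest ratios at a coverage of at least 20 were 2 of 20 counts at 19163459 in MCF10A and 2 of 32 at 19163630 in MDA-MB-468, both in the 3′UTR. Exon 8 of SLC25A1 was its highest exon in MCF10A with 3.66% (2.59% to 5.15%), and gave 1.06% (0.488% to 2.30%) in MDA-MB-468.

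SLC25A11, at chr17:4840425-4843348 on the minus strand, gave 1.72% (1.30% to 2.27%) over 180 sites in MCF10A and 0.865% (0.591% to 1.26%) over 171 sites in MDA-MB-468. It was thinly covered, with a median coverage of 14 and 15, and at a coverage of 10 a call needed 4 unconverted counts in each library. Its highest ratios at a coverage of at least 20 were 2 of 23 counts at 4840870 and 2 of 36 at 4840758, again in the 3′UTR. Both SLC25A1 and SLC25A11 were lower in MDA-MB-468, and intervals for either gene did not overlap between libraries. The differences were -0.440 and -0.857 points, against a median of -0.417 over all genes. The difference of SLC25A11 varied with the sites used. With only sites at a coverage of at least 20, MCF10A stood at 1.18% and MDA-MB-468 at 1.14% for this gene. SLC25A1 stood at 1.18% and 0.898% under that setting. Only 7 SLC25A11 sites had a coverage of at least 20 in both libraries. Over the 119 SLC25A11 sites kept in both libraries, MCF10A gave 1.36% and MDA-MB-468 gave 0.847%.

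**Figure D5:**
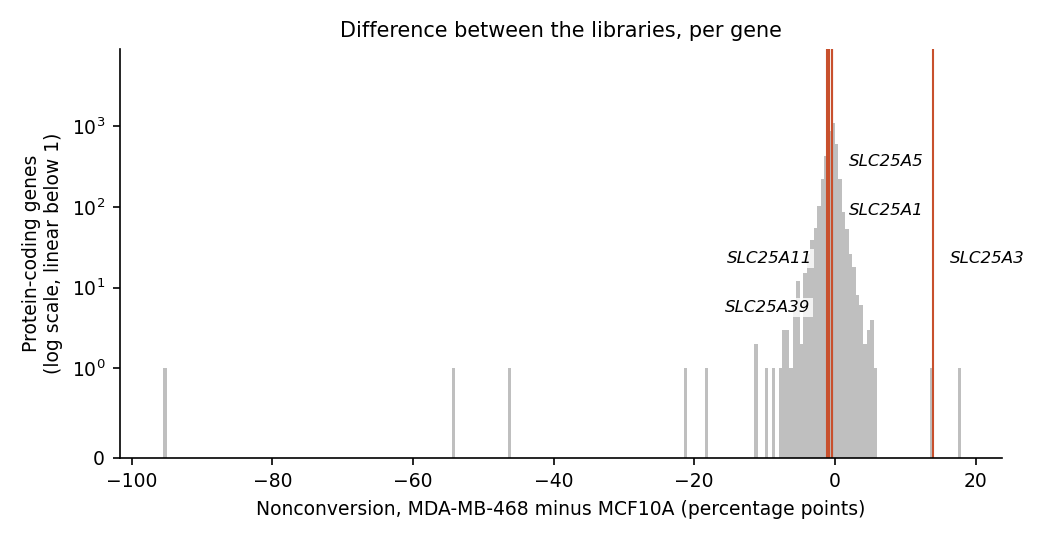
Number of protein-coding genes (y axis, log scale, linear below 1) by the difference in nonconversion, MDA-MB-468 minus MCF10A (x axis, percentage points, bins of 0.5), for the 3934 genes with at least 50 kept sites in each library, with 5 SLC25 genes as red lines. SLC25A3 lies at 13.9 points, and SLC25A1, SLC25A5, SLC25A11 and SLC25A39 lie between -1.06 and -0.433.

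The order of the members differed between the libraries. In MCF10A it ran SLC25A39, SLC25A3, SLC25A5, SLC25A11, SLC25A1, where the intervals of SLC25A39 and SLC25A3 overlapped, as did those of SLC25A5 and SLC25A11 and those of SLC25A11 and SLC25A1. In MDA-MB-468 it ran SLC25A3, SLC25A39, SLC25A5, SLC25A1, SLC25A11, where SLC25A3 stood alone, the intervals of SLC25A1 and SLC25A11 overlapped, and those of SLC25A39 and SLC25A5 did not.

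By region, the genes together gave 1.94% (1.65% to 2.28%) in the 5′UTR, 2.18% (2.05% to 2.31%) in the coding sequence and 2.75% (2.34% to 3.23%) in the 3′UTR in MCF10A. All mRNAs gave 2.70%, 1.81% and 2.06% there. In MDA-MB-468 they gave 1.25% (0.935% to 1.66%), 2.60% (2.44% to 2.78%) and 2.17% (1.89% to 2.49%), against 2.56%, 1.63% and 1.71% over all mRNAs. In MCF10A the 5′UTR and coding intervals overlapped, and their order turned, to 2.38% and 2.13%, when positions annotated as both were counted as coding. In MDA-MB-468 the 5′UTR interval lay below the other 2 intervals. SLC25A3 had no kept 5′UTR site in MDA-MB-468, so the regions pooled different genes there. Without SLC25A3 the coding sequence gave 1.87% in MCF10A against 1.33% in MDA-MB-468, the latter inside the 5′UTR interval of that library. Of the 61 calls in MDA-MB-468, 54 lay in the coding sequence and 7 in the 3′UTR. Over all mRNAs 0.551% of coding and 0.74% of 3′UTR sites were called in that library. In MCF10A 2 calls lay in the 5′UTR, 1 in the 3′UTR and 0 in the coding sequence, where 2.24%, 0.837% and 0.615% of all mRNA sites were called.

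The called sites of MDA-MB-468 were clustered and had no single sequence context. Of 61 calls, 58 had another call within 10 nt, or 95.1%, against 87.7% of all calls in that library, while 0 of 3 did in MCF10A against 87.3%. The 61 calls fell into 6 runs, counting isolated calls as runs. They covered 15 of the 16 trinucleotide contexts. Of the 61 calls 11 lay before a G, as did 199 of all 1194 kept SLC25 sites in that library. SLC25A3 exon 2 alone held 49 of the calls, in 14 contexts and with 10 before a G. In that exon 49 of 53 kept cytosines were called, so the contexts mostly follow the sequence of that stretch.

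Among the other SLC25 family genes and the 2 mitochondrial carrier homologs MTCH1 and MTCH2, 22 had a kept site in MCF10A against 19 in MDA-MB-468. Calls were made at 3 of 2290 sites in MCF10A, 2 in SLC25A36 and 1 in SLC25A22. Among the family genes reported here for MDA-MB-468, SLC25A37 had 2 calls and SLC25A29 had 1. None of their 1308 shared sites differed. Of the outer membrane channels and TIM22 import proteins, VDAC1, the main outer membrane channel for metabolites, had 24 calls in 125 sites in MCF10A and 0 in 20 in MDA-MB-468, and TIMM8B had 1 in MCF10A. Nonconversion of VDAC1 was 4.75% and 5.09%, and none of its 20 shared sites differed.

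By pooled nonconversion in the 2 libraries, SRSF9 (2.19% and 2.39%), ILF2 (2.22% and 2.43%) and RACK1 (2.14% and 2.45%) were most like the SLC25 genes together, at Euclidean distances of 0.0210, 0.0217 and 0.0731 points among 3929 genes. SRSF9 and ILF2 had no call in either library, while RACK1 had 10 calls in MCF10A against 1 in MDA-MB-468. The MDA-MB-468 value matched, 2.41%, rested on SLC25A3 and was 1.50% without it. No single member lay at that value, as SLC25A3 gave 16.8% there and the others 0.865% to 1.90%.

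The coverage minimum of 10 set the sites used. In MCF10A the 54 SLC25 sites at a coverage of 10 gave 2.59% and the 54 at a coverage of 9, left out, gave 4.53%. In MDA-MB-468 the 56 sites at 10 gave 3.57% and the 52 at 9 gave 4.70%.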

How the data were processed

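RNA BS-Seq tables of 1 MCF10A and 1 MDA-MB-468 library were used. After trimming and alignment to hg19 with MeRanTK, the authors deposited counts of unconverted and converted reads per cytosine, without normalization, from a coverage of 5. The submitters' processing notes also name Trim Galore and Bismark, with no version. A duplicate limit and base quality filter were applied upstream, so counts are not independent molecules. Here, the tested set held cytosines covered at least 10 times on same-strand exons of GENCODE v44lift37 basic transcripts or on the mitochondrial chromosome. Every nuclear site fell on a cytosine of GRCh37. Nonconversion carries 95% Wilson intervals. Transcripts were folded with ViennaRNA 2.7.2 at 70 degrees and a pair distance of at most 150 nt. Regions took the 5′UTR first, then CDS. The code was tested on simulated data. The members and gene lists were chosen with earlier results of these data known. Sites named were the called site with the highest ratio at a coverage of at least 20 per member and library, or where none was called the highest, all runs of at least 3 calls, and the 5 largest differences among differential sites at that coverage in each library. The 3 genes most like the members and up to 5 family genes with most calls were also named. Other features described, VDAC1 among them, were chosen after their values were seen. Python 3.11.15, scipy 1.17.1, numpy 2.4.6, pandas 2.3.3 and pysam 0.24.0 were used. Some genes of the marker and family lists are not reported here.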

Additional observations from a re-analysis of the deposited data

Results flagged for a closer look

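Some SLC25 positions outside the kept exonic sites had unconverted counts above the library background of 1.99% in MCF10A against 1.81% in MDA-MB-468, with the lower bound of the 95% Wilson interval above it. No position in these sets had a coverage of 10, and the cause was not tested. On the strand opposite to SLC25A3, 36 of 38 counts at 7 sites were unconverted in MCF10A, or 94.7%, and 10 of 10 at 2 sites in MDA-MB-468, or 100%. Opposite to SLC25A1, 10 of 50 counts at 10 sites were unconverted in MDA-MB-468, or 20%. In an intron of SLC25A3, 9 of 30 counts at 6 sites were unconverted in MDA-MB-468, or 30%.

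Exonic sites with a coverage of 5 to 9 also stood above the background in several genes. SLC25A5 gave 12.2% in MCF10A (23 of 189 counts) against 23.6% in MDA-MB-468 (57 of 242 counts). Most of these counts came from its 3′UTR, with 18 of 87 unconverted in MCF10A against 52 of 162 in MDA-MB-468. SLC25A39 gave 4.64% in MCF10A against 5.31% in MDA-MB-468, where its 3′UTR held 18 of 24 and 13 of 18 unconverted counts. SLC25A11 gave 3.92% in MCF10A, and SLC25A3 gave 5.13% in MDA-MB-468.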

How the results depend on the processing

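With SLC25A3 left out, an alternative chosen after seeing the data, SLC25 m5C sites in MDA-MB-468 fell from 61 to 7 and differential sites from 21 to 0, and nonconversion of the genes together went from 2.20% to 1.95% in MCF10A and from 2.41% to 1.50% in MDA-MB-468. Benjamini-Yekutieli adjustment left 0 of 3 m5C sites in MCF10A, 45 of 61 in MDA-MB-468 and 4 of 21 differential sites, and adjusting over called sites alone gave 46 differential sites. All differential sites were higher in MDA-MB-468 under each setting. The mean of site ratios gave 3.66% for SLC25A3, 2.72% for SLC25A5 and 3.32% for SLC25A39 in MCF10A, and 1.96% for SLC25A5 and 2.71% for SLC25A39 in MDA-MB-468. A coverage of at least 20 gave 1.18% for SLC25A11 in MCF10A and 1.69% for SLC25A39 in MDA-MB-468, and sites kept in both libraries gave 1.59% for the latter. Taking CDS before the UTRs gave 2.38% for the 5′UTR in MCF10A, above the 2.13% of the CDS, so their order turned. The cause of these shifts was not tested. The other 61 alternative values of the main results stayed near the main count or within the interval. Among single genes, a coverage of at least 20 left 3 of 7 SLC25A39 calls in MDA-MB-468, leaving out predicted pairs removed the SLC25A3 call in MCF10A, and Benjamini-Yekutieli adjustment removed the calls of SLC25A3 and SLC25A39 there. No paired analysis was possible because each line has 1 library. Depth limited SLC25A3 in MDA-MB-468, where 115 of 1469 exonic cytosines were kept, and left the 3′UTR of most genes partly unmeasured.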
